A study of Mus musculus with 16 samples.

Results

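The genes described here encode the UDP-glucuronosyltransferases (symbols starting with Ugt1, Ugt2 or Ugt3) and the cytosolic sulfotransferases (symbols starting with Sult) of mouse liver. Members were all genes of these names in the RefSeq gene table. Of 43 such genes, 40 could be paired with 52 probes of the array, out of 23329 named genes with a value. Ugt1a8, Sult4a1 and Sult2a-ps2 had no paired probe. The livers came from 16 male mice, 6 weeks old, on a mixed C57BL/6 and SV129 background, with 4 mice in each of 4 genotypes of CerS2, the ceramide synthase that uses very long acyl chains. H/A is the line labelled CerS2 H/A, Del is also called delHox, Flox is also called delneo, and WT is wild type. H/A, Del and Flox are all engineered lines. The labels do not say what the Del and Flox alleles contain, in which cells they act or whether Flox mice carried a recombinase. RNA from each liver was hybridised to 1 array, labelled with Cy3.

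Both enzyme families attach a polar group to small molecules and so make them soluble enough to leave the body in bile or urine. The glucuronosyltransferases of the endoplasmic reticulum take glucuronic acid from UDP-glucuronic acid, and the Ugt1a genes of mouse share their last exons while each has a first exon of its own. The sulfotransferases of the cytosol take sulfate from PAPS, the activated sulfate donor, and the Sult2a enzymes act on hydroxysteroids and bile acids. In mouse liver several Sult2a genes are known to be far more active in females than in males, and all mice here were male.

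The probes come first, because several Sult2a genes are near copies of each other. The brightest probes of Sult2a2, Sult2a3 and Sult2a5, genes of a cluster on chromosome 7, could be aligned without gaps over 46 bases, of which 42 were the same in all 3 probes. They are printed 5′ to 3′ because their signals cannot be taken as independent. Capitals mark the 4 aligned positions at which the 3 probes differ.

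Sult2a2: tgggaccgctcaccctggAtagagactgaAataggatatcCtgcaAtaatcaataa
Sult2a3: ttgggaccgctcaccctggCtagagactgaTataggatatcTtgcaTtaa
Sult2a5: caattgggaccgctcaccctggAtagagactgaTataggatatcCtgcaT

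The longest unbroken stretch shared by a pair was 29 bases, between Sult2a2 and Sult2a5. The Sult2a4 and Sult2a6 probes shared 18 bases. No other pair among the 52 probes shared 15 bases or more, and this covers all probes of the Ugt genes. Signals of these 5 Sult2a genes are therefore given as uncertain between near copies. Probes were compared only with each other, so a match of a probe to the transcript of another gene was not examined. This limit holds for the Ugt genes too, among them Ugt2a1 and Ugt2a2, which overlap on chromosome 5. Sult2a4 is shown next, since its brightest probe and its other probe moved in opposite directions, together with the probes of the falling genes Sult2a8, Sult5a1 and Ugt2b1.

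Sult2a4, brightest probe: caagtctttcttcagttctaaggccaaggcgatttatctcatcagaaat
Sult2a4, other probe: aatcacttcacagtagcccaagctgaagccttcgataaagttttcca
Sult2a8, brightest probe: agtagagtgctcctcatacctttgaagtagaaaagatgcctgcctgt
Sult2a8, other probe: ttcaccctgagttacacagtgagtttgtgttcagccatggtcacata
Sult5a1, brightest probe: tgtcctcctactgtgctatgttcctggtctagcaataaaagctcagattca
Ugt2b1: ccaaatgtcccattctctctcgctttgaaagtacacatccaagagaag

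Values are log2 signals of the authors' quantile-normalised table, 1 unit being a doubling, for the probe of each gene with the highest mean over the 16 arrays. A gene was tested if that probe was well above background on at least 4 arrays, which 34 of 40 members met. The 6 members not tested were Sult1c1, Sult2b1, Sult3a1, Sult6b1 and Ugt2a2, each on 0 arrays, and Sult3a2 on 3 arrays. Of the 34 tested, Sult2a2, Sult2a3 and Sult2a5 passed on exactly 4 arrays, 3 of H/A and 1 of Flox, so they were bound to differ between those arrays and the others. "Rose" and "fell" are used of genes with a Benjamini-Hochberg adjusted p under 0.05 in the limma fit over 31484 genes and unnamed transcripts. The p-values measure the spread between these mice, and 4 arrays per genotype bound what these values can resolve.

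Of the probes of an array, 51.6% to 65.1% were well above background, and 0 were saturated. All 11 hepatocyte markers with a probe were well above background on all 16 arrays. Their summed signal was 18.60 to 18.75 in H/A, 18.58 to 18.71 in Del, 18.62 to 18.71 in Flox and 18.63 to 18.70 in WT (log2). Of 11 tested markers of Kupffer cells and macrophages, 9 rose in H/A and 8 in Del, both against WT, where 7.08% and 8.85% of all genes tested were called higher. Their summed log2 signal was 13.14 to 14.20 in H/A, 13.29 to 13.45 in Del, 12.14 to 12.75 in Flox and 11.89 to 12.88 in WT, and 0 of them were at background on every array. The part of macrophages in the values below was not tested. The defining markers Vil1 and Sis of enterocytes, Prss2 of acinar cells and Slc5a2 of kidney tubules were well above background on 0 arrays. Other markers of these lists were well above background on all 16 arrays, being 2 of 7 for enterocytes (Fabp2 and Alpi), 3 of 7 for acinar cells (Cela1, Cela2a and Amy2b) and 3 of 6 for kidney tubules (Lrp2, Slc34a1 and Slc22a6). The summed log2 signal of the enterocyte list was 9.60 to 10.81 in H/A, 10.15 to 10.80 in Del, 9.84 to 10.51 in Flox and 10.40 to 11.24 in WT. That of the acinar list was 9.18 to 9.38 in H/A, 9.06 to 9.22 in Del, 9.31 to 9.64 in Flox and 9.59 to 10.003 in WT, and that of the kidney list was 7.72 to 8.07 in H/A, 7.76 to 8.22 in Del, 8.10 to 8.45 in Flox and 7.93 to 8.07 in WT. The part of these lists in the values below was not tested. Flox replicate 1 and H/A replicates 3 and 4 stood apart from their groups in several members, and values without them are given beside the calls that they end or move most. In bulk liver RNA, fewer cells of a type and less RNA per cell cannot be told apart.

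**Figure D1:**
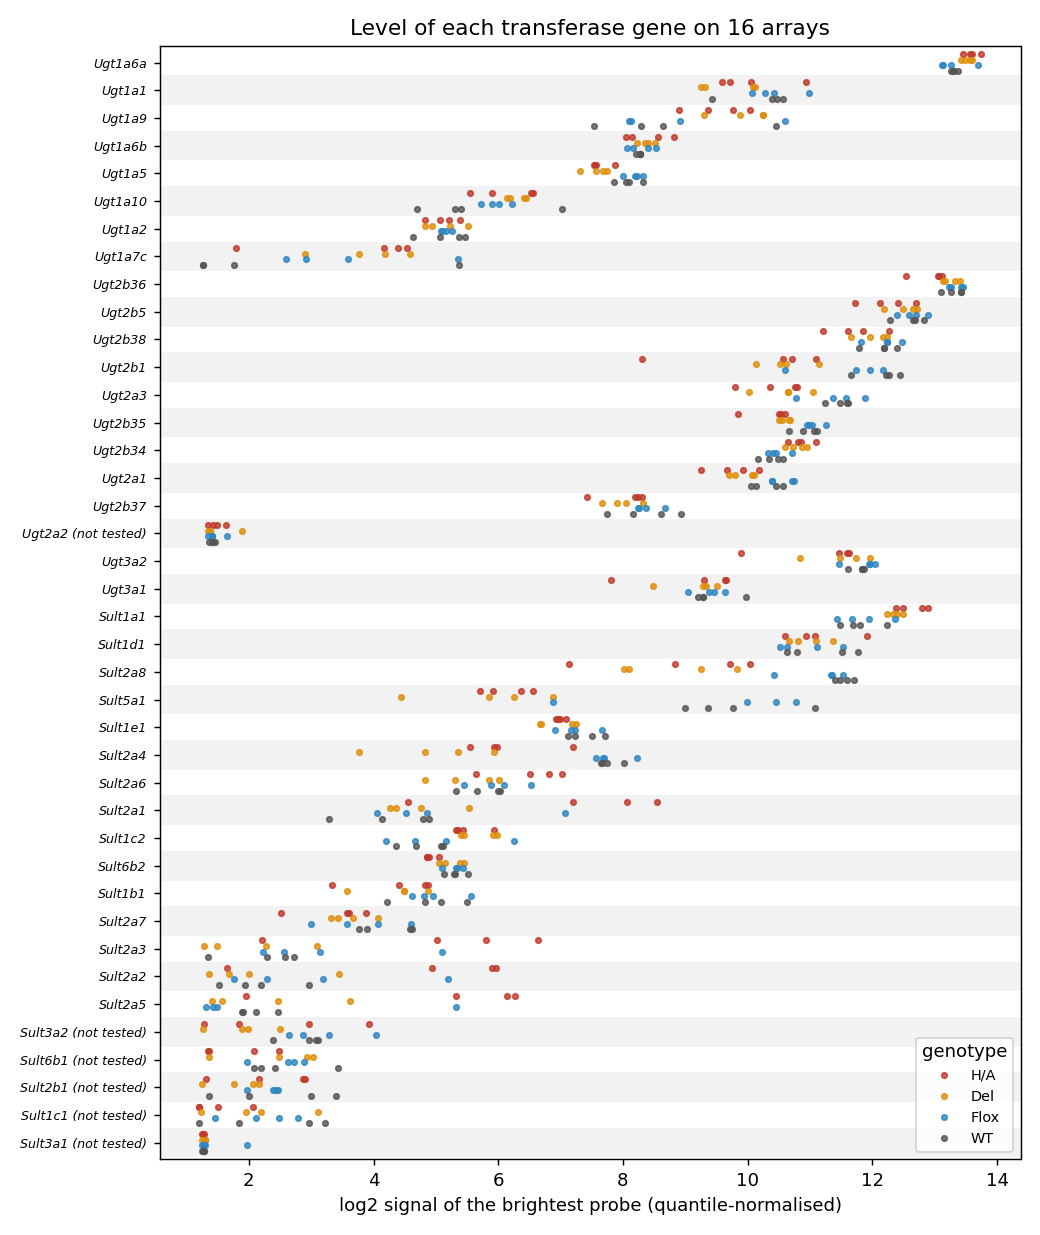
Log2 signal (horizontal axis) of the brightest probe of each of the 40 members on the 16 arrays, 1 point per mouse, coloured by genotype. Signals span 1.20 for Sult1c1 to 13.75 for Ugt1a6a, the H/A and Del points of Sult5a1 and Sult2a8 lie left of most Flox and all WT points, and signals of different probes are not comparable as levels.

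In H/A against WT, 11 of 34 members passed the test, 4 higher and 7 lower, against 10.1% of all genes tested (7.08% called higher and 2.97% called lower). The 3 falls of Sult5a1, Sult2a8 and Ugt2b1 exceeded 3-fold, as did that of Sult2a4. The members called higher were Sult1a1, Sult2a1, Sult2a3 and Ugt2b34, of which Sult2a3 passed the filter only through arrays on which it was high, so that its call supports nothing. The median log2 difference of the 34 was -0.33, against -0.09 for all genes. Without H/A replicate 3 the count was 3, the falls of Sult2a8, Sult5a1 and Ugt2b1 (4.9% of all genes called). Without WT replicate 4 it was also 3, all lower (4.61% of all genes called). Without any scaling between arrays the median of all genes moved to 0.37. The split there turned to 11 higher and 3 lower, against 29.9% and 0.4% of all genes.

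In Del against WT, 6 members fell and 0 rose (13.2% of all genes called, 8.85% higher and 4.38% lower), with a median of -0.20 over members and -0.11 over all genes. Without WT replicate 4 the count was 3 of 34 (8.82%), about the share of all genes called there (8.46%). Without Del replicate 3 it was also 3 (8.82%), against 6.95% of all genes. Without WT replicate 3 the split turned to 4 higher and 3 lower (8.17% of all genes called, 5.88% higher and 2.29% lower). In Del against Flox, 7 fell and 0 rose, against a background of 34.8% (16.6% higher and 18.2% lower) of all genes. Their median was -0.26 and that of all genes -0.14. Without Flox replicate 1, Del against Flox gave 4 higher and 5 lower (21% of all genes called, 12.3% higher and 8.76% lower). The added rises were those of Sult1a1 (0.69), Sult1c2 (1.01), Ugt1a6a (0.34) and Ugt1a9 (1.54). In the same fit Del against WT gave 2 higher (Sult1a1 and Sult1c2) and 6 lower, against 8.81% and 4.23% of all genes. The H/A and Del comparisons with WT share the same 4 WT mice, and both Del comparisons share the Del mice.

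In Flox against WT, 0 of 34 members were called with limma, and 0 had an unadjusted p under 0.05. Of all 31484 genes 0.0222% were called there (0.00318% higher and 0.0191% lower), and 1827 had an unadjusted p under 0.05. The differences ran from -0.52 to 1.20, with intervals that reached from -1.82 to 3.05. In H/A against Del, which tests whether the effects of both lines differ, 0 members passed with limma (0.0127% of all genes, 0.00953% higher and 0.00318% lower). An unadjusted limma p under 0.05 was met by 8 of 34 members and by 2470 of all 31484 genes. The 8 include Sult2a2, Sult2a3 and Sult2a5, which passed the filter only through arrays on which they were high.

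**Figure D2:**
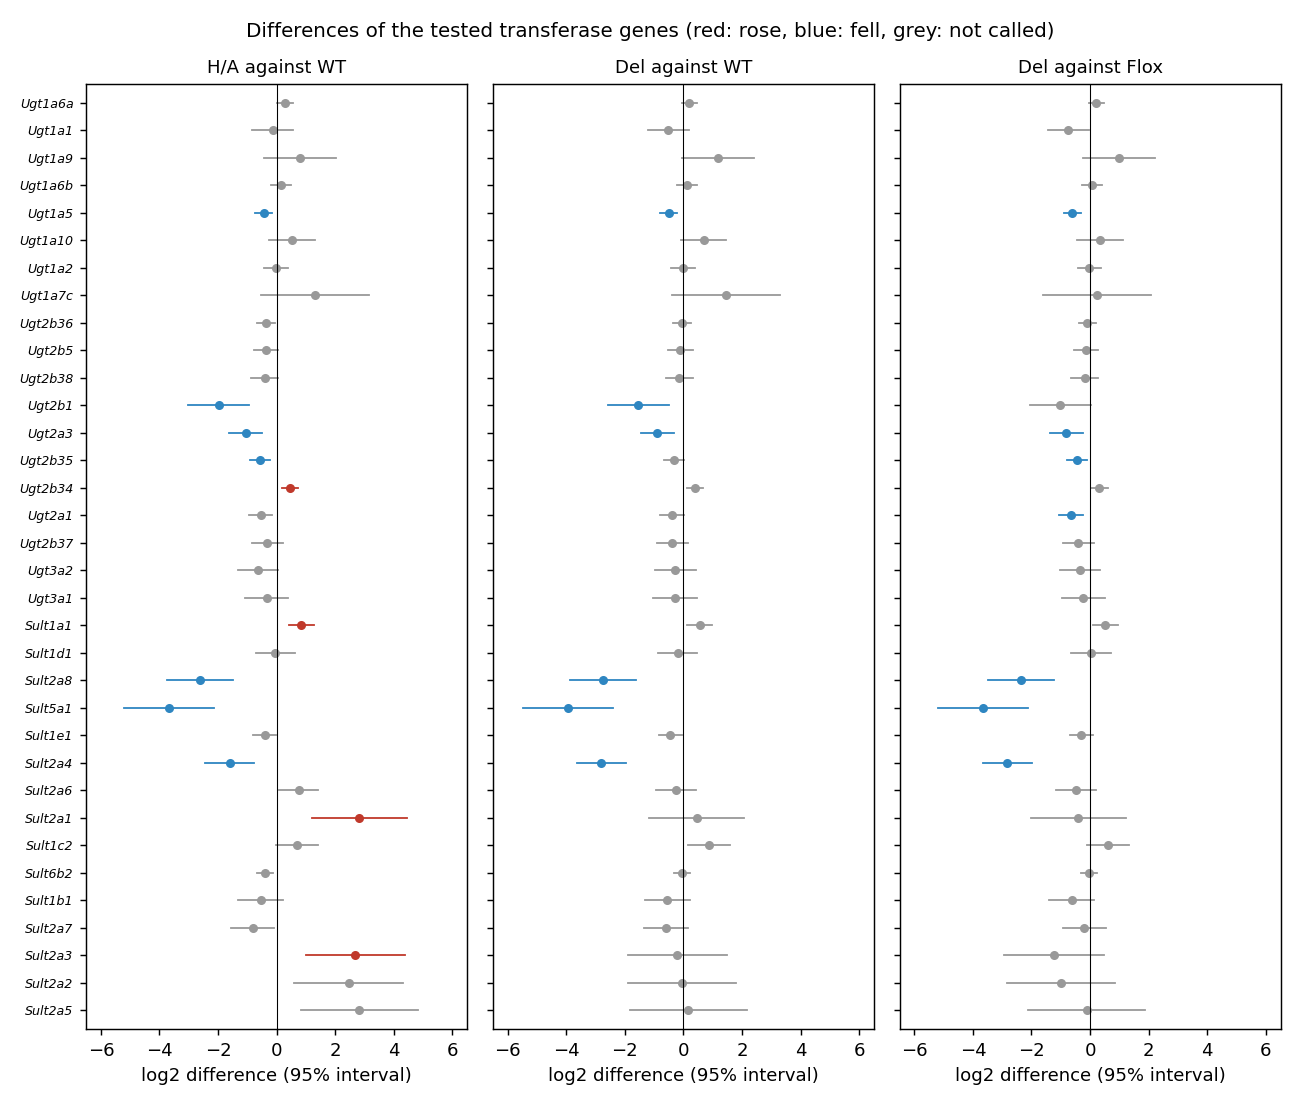
Log2 differences of the 34 tested members with their 95% intervals in H/A against WT, Del against WT and Del against Flox, ordered by family. Red marks the 4 members called higher in H/A, blue the 7, 6 and 7 falls in the 3 comparisons, and grey the members that did not pass.

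Sult2a8 encodes a sulfotransferase of mouse liver that acts on bile acids. Its log2 signals were 10.04, 8.84, 7.13 and 9.72 in H/A livers and 8.02, 9.24, 8.09 and 9.82 in Del livers, against 10.42, 11.34, 11.53 and 11.36 in Flox livers and 11.71, 11.40, 11.48 and 11.60 in WT livers. Every H/A and Del array lay below every WT and Flox array, and the lowest control was Flox replicate 1. The spread between H/A mice (SD 1.31) was wider than that between WT mice (SD 0.13, n = 4 each). Sult2a8 fell by 2.61 in H/A against WT (95% interval -3.73 to -1.49, limma adjusted p = 0.0066), a 6.12-fold difference. It fell by 2.75 in Del against WT (-3.87 to -1.63, adjusted p = 0.0032) and by 2.36 in Del against Flox (-3.48 to -1.25, adjusted p = 0.0054). The other probe, which lies just after the start of a RefSeq transcript, averaged 5.18 ± 1.37 in H/A, 4.92 ± 0.80 in Del, 7.77 ± 0.22 in Flox and 7.88 ± 0.16 in WT (log2, SD, n = 4 each). Both probes of Sult2a8 were thus lower in both lines. All 3 calls were kept in each of the 16 fits that left out 1 array.

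Sult5a1, a sulfotransferase gene of chromosome 8, showed the largest differences among the 34 members in H/A and in Del against WT. Its log2 signals were 6.56, 6.37, 5.71 and 5.91 in H/A livers and 4.45, 6.26, 5.86 and 6.88 in Del livers, against 6.87, 10.77, 10.45 and 9.98 in Flox livers and 11.08, 9.77, 9.37 and 9.0 in WT livers. Flox replicate 1 lay within the range of the Del livers, while the other 3 Flox arrays and all WT arrays lay above every H/A and Del array. Sult5a1 fell by 3.67 in H/A against WT (-5.20 to -2.13, limma adjusted p = 0.0058), a 12.7-fold difference. The fall was 15.4-fold in Del against WT (adjusted p = 0.0024) and 12.6-fold in Del against Flox (adjusted p = 0.0027), and all 3 calls were kept in each fit that left out 1 array. Without Flox replicate 1 the log2 difference in Del against Flox was -4.54. Of the 3 other probes of Sult5a1, the one well above background on 15 of 16 arrays averaged 3.88 ± 0.27 in H/A, 4.28 ± 0.23 in Del, 4.83 ± 0.57 in Flox and 5.01 ± 0.65 in WT (log2, SD, n = 4 each). Another was well above background on 0 H/A and 0 Del arrays, against 3 Flox and 4 WT arrays, where it averaged 4.92 and 4.82. The last was well above background on 3 of 16 arrays and gives no difference.

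Sult2a4 is a hydroxysteroid sulfotransferase gene of the chromosome 7 cluster. Its brightest probe read 7.20, 5.98, 5.55 and 5.92 in H/A livers and 4.83, 5.36, 3.76 and 5.94 in Del livers, against 7.57, 8.22, 7.70 and 7.68 in Flox livers and 8.02, 7.75, 7.66 and 7.65 in WT livers (log2). No H/A or Del array reached the lowest Flox or WT array. By this probe Sult2a4 fell by 1.61 in H/A against WT (-2.44 to -0.78, limma adjusted p = 0.0186), by 2.80 in Del against WT (adjusted p = 0.00034) and by 2.82 in Del against Flox (adjusted p = 0.00028). The other probe went the opposite way in H/A livers, at 8.25, 7.49, 8.63 and 1.61 there, 1.43, 5.15, 3.10 and 1.32 in Del livers, 6.90, 2.30, 1.29 and 1.34 in Flox livers and 1.37, 1.35, 1.97 and 1.30 in WT livers. It was well above background on 3 H/A, 1 Del, 1 Flox and 0 WT arrays, being high on the first 3 H/A arrays, Flox replicate 1 and Del replicate 2. With the mean of both probes no Sult2a4 call was left and the H/A difference became 1.69, a value that averages a probe measured in every group with one at background in WT. Without H/A replicate 3 the brightest probe gave -1.40 in H/A against WT (limma adjusted p = 0.0657).

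**Figure D3:**
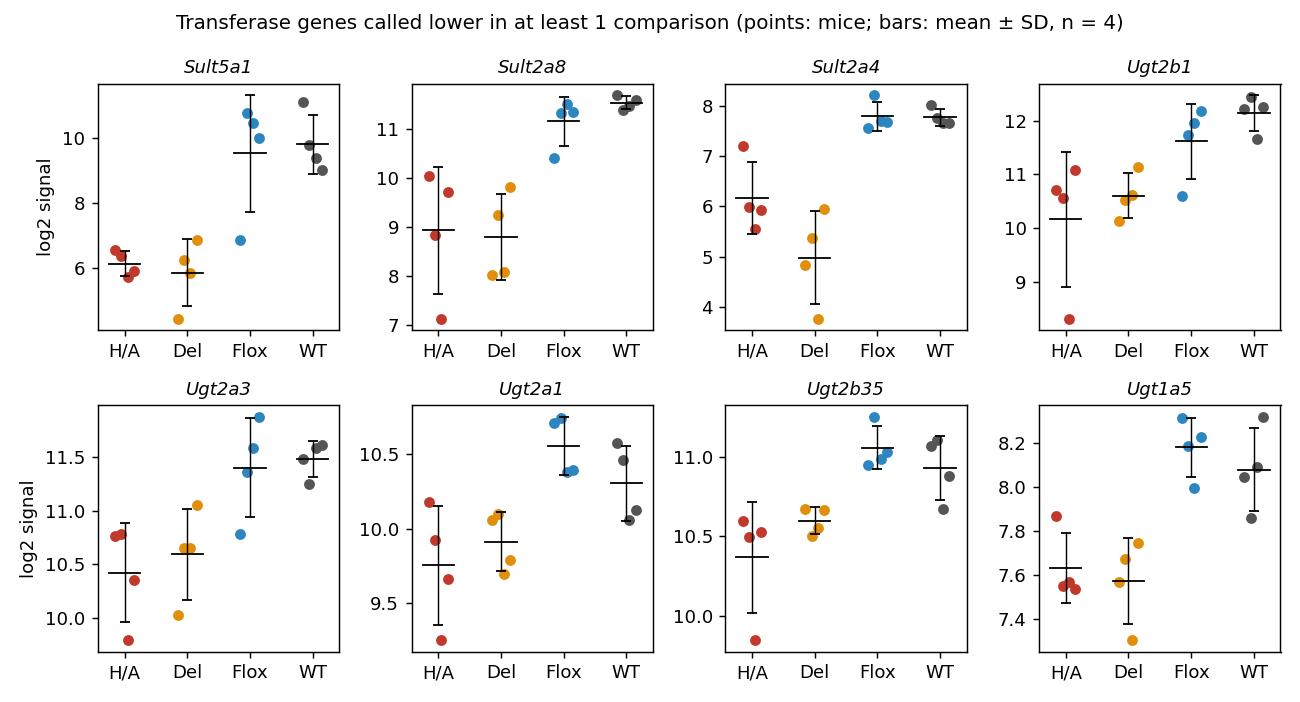
Log2 signal of the 8 members that were called lower in at least 1 comparison, with 1 point per mouse and bars for mean and SD (n = 4). In Sult2a8 and Sult2a4 all H/A and Del points lie under all Flox and WT points, whereas Flox replicate 1 of Sult5a1, at 6.87, lies among the Del points.

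Other Sult2a genes were higher in H/A, and unevenly so. Sult2a1, the hydroxysteroid sulfotransferase known from female mouse liver, read 8.07, 7.20, 8.54 and 4.56 in H/A livers and 4.27, 5.52, 4.36 and 4.76 in Del livers, against 7.08, 4.05, 4.53 and 4.85 in Flox livers and 4.80, 3.28, 4.89 and 4.13 in WT livers (log2). H/A replicates 1 to 3 and Flox replicate 1 stood above all other arrays, and H/A replicate 4 lay within the WT range. Sult2a1 rose by 2.82 in H/A against WT (1.20 to 4.43, limma adjusted p = 0.0306) and differed by 0.45 in Del against WT (-1.16 to 2.07, adjusted p = 0.681). Without H/A replicate 4 the rise was 3.66. The H/A call was lost without any of H/A replicates 1, 2 and 3 or WT replicates 3 and 4.

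Sult2a3 read 6.64, 5.02, 5.80 and 2.21 in H/A livers and 1.48, 3.09, 2.27 and 1.28 in Del livers, against 5.10, 3.15, 2.56 and 2.22 in Flox livers and 2.29, 1.35, 2.72 and 2.58 in WT livers (log2). It was well above background on 3 H/A arrays and 1 Flox array and on 0 arrays of WT and Del. H/A replicate 4, at 2.21, lay within the WT range, so no fold difference is given for the H/A livers as a group. The Sult2a3 call in the fit follows from the filter, which the gene passed only through those 4 arrays. That call was lost with no filter on dim probes and in 11 of 16 fits that left out 1 array. The Sult2a2 and Sult2a5 probes were bright on those 4 arrays too, at 4.93 to 5.97 and 5.32 to 6.27. The H/A arrays that were bright for these genes and Flox replicate 1 all lay on the same slide by the labels, and H/A replicate 4 lay on the other. On that same slide the Sult2a2 probe was dim on Del replicate 1 (1.36), Flox replicate 2 (2.29) and WT replicates 1 and 2 (2.97 and 1.52).

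**Figure D4:**
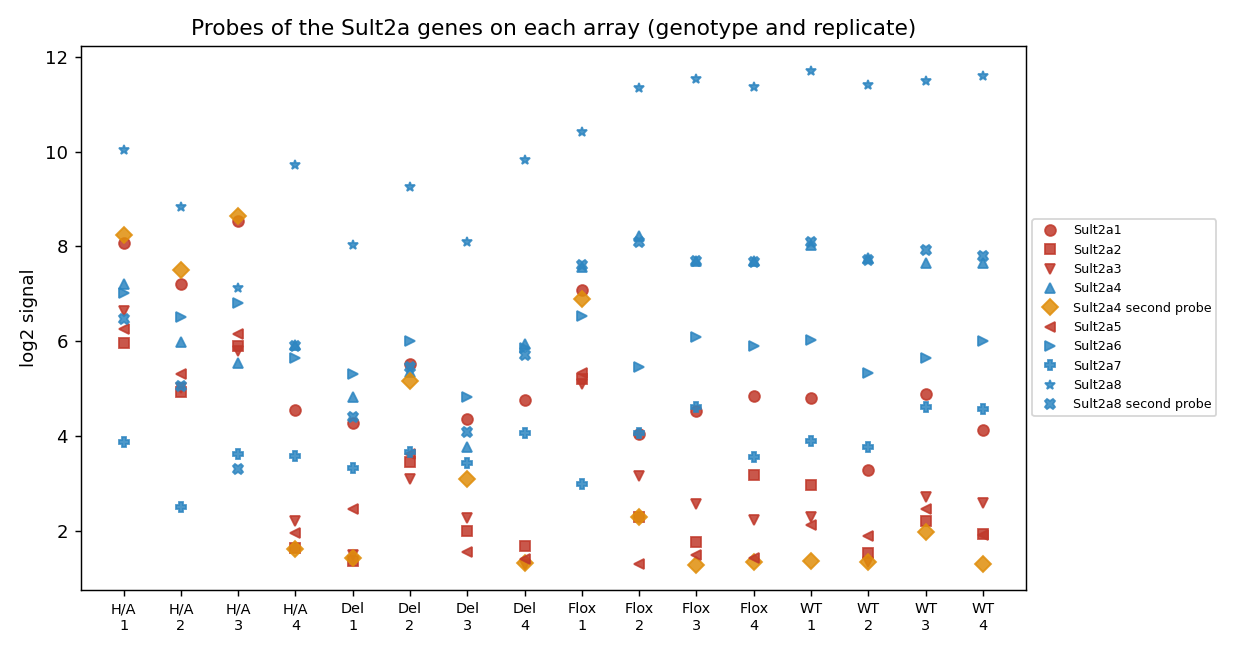
Log2 signal of the 10 probes of Sult2a genes on each array, by genotype and replicate number. The probes of Sult2a1, Sult2a2, Sult2a3, Sult2a5 (red) and the second Sult2a4 probe (orange) are high in H/A replicates 1 to 3 and Flox replicate 1, while both Sult2a8 probes and the brightest Sult2a4 probe (blue) are lower in H/A and Del than in WT.

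Of the other Sult2a genes, Sult2a6 differed by 0.75 in H/A against WT (adjusted p = 0.122) and Sult2a7 by -0.82 (adjusted p = 0.120) with limma. In H/A against Del, the differences were 2.36 for Sult2a1, 1.19 for Sult2a4 and 1.00 for Sult2a6 (limma adjusted p = 0.520 for each). Sult2a2, Sult2a3 and Sult2a5 were not well above background on any Del array or on H/A replicate 4 (1.65, 2.21 and 1.96). They passed the filter only through arrays on which they were high, and did not pass the test either. A difference between the lines was therefore not shown for any of them.

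Among the Sult1 genes, Sult1a1, whose enzyme sulfates simple phenols, read 12.48, 12.80, 12.90 and 12.38 in H/A livers and 12.24, 12.50, 12.33 and 12.40 in Del livers, against 12.37, 11.42, 11.66 and 11.95 in Flox livers and 11.81, 11.48, 12.23 and 11.69 in WT livers (log2). All H/A arrays lay above all WT arrays, and Flox replicate 1 lay with the Del arrays. Sult1a1 rose by 0.84 in H/A against WT (0.41 to 1.26, limma adjusted p = 0.0168), and its difference was 0.56 in Del against WT (adjusted p = 0.0719) and 0.51 in Del against Flox (adjusted p = 0.0559). Its other probe differed by 0.34 in H/A against WT. Leaving out H/A replicate 2, H/A replicate 3 or WT replicate 4 ended the H/A call.

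Sult1d1, a catecholamine sulfotransferase of mouse, was among the 6 brightest probes that did not pass, at 10.60 to 11.91 in H/A, 10.66 to 11.37 in Del, 10.52 to 11.53 in Flox and 10.62 to 11.77 in WT. Its difference in H/A against WT was -0.05 (-0.71 to 0.62). Sult1e1, the estrogen sulfotransferase, had differences from WT of -0.41 in H/A livers (limma adjusted p = 0.136) and -0.45 in Del livers (adjusted p = 0.105). The values for Sult1b1, which sulfates thyroid hormones, were -0.55 in both lines, and those for Sult1c2 were 0.70 in H/A and 0.88 in Del, with adjusted p of 0.0883 or above. The Sult6b2 difference from WT was -0.39 in H/A livers (adjusted p = 0.056) and -0.05 in Del livers.

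The Ugt2 genes, whose enzymes conjugate steroids and many drugs, gave 1 rise and 3 falls among 9 tested in H/A against WT. Of all genes, 7.08% were called higher and 2.97% lower there. Ugt2b1 read 10.71, 10.56, 8.31 and 11.09 in H/A livers and 10.13, 10.52, 10.62 and 11.14 in Del livers, against 10.60, 11.74, 11.96 and 12.18 in Flox livers and 12.22, 12.44, 11.66 and 12.26 in WT livers (log2). All H/A and Del arrays lay below all WT arrays, H/A replicate 3 was the lowest, and Flox replicate 1 lay among the Del arrays. Ugt2b1 fell by 1.98 in H/A against WT (-3.02 to -0.94, limma adjusted p = 0.0205), a 3.93-fold difference, and by 1.54 in Del against WT (adjusted p = 0.0487). In Del against Flox it differed by -1.02 (adjusted p = 0.108). Without H/A replicate 3 the H/A fall was 1.36. The Del call held in 4 of 16 fits that left out 1 array and the H/A call in 15.

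Ugt2a3 read 10.76, 10.78, 9.79 and 10.36 in H/A livers and 10.03, 10.65, 10.65 and 11.05 in Del livers, against 10.78, 11.36, 11.58 and 11.87 in Flox livers and 11.48, 11.24, 11.58 and 11.61 in WT livers (log2). The H/A and Del arrays lay below the WT arrays, and Flox replicate 1 overlapped with Del. It fell 2.08-fold in H/A against WT (limma adjusted p = 0.0211), 1.85-fold in Del against WT (adjusted p = 0.0376) and 1.75-fold in Del against Flox (adjusted p = 0.0304). Without H/A replicate 3 the H/A difference was -0.85 (adjusted p = 0.0713), and without Flox replicate 1 that in Del against Flox was -1.01.

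Ugt2b35 read 10.60, 10.50, 9.85 and 10.53 in H/A livers and 10.67, 10.50, 10.55 and 10.67 in Del livers, against 10.95, 11.25, 10.99 and 11.03 in Flox livers and 11.06, 11.10, 10.67 and 10.88 in WT livers (log2). H/A replicate 3 was lowest, and WT replicate 3 touched the Del range. It fell by 0.56 in H/A against WT (limma adjusted p = 0.0366) and by 0.46 in Del against Flox (adjusted p = 0.038), and its difference was -0.33 in Del against WT (adjusted p = 0.158). Without H/A replicate 3 the H/A difference was -0.39 (adjusted p = 0.0989), without Flox replicate 1 that in Del against Flox was -0.49 (adjusted p = 0.0577), and without scaling the H/A difference was 0.010.

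Ugt2a1, known from the olfactory epithelium, read 10.18, 9.92, 9.25 and 9.66 in H/A livers and 10.06, 10.10, 9.70 and 9.79 in Del livers, against 10.71, 10.74, 10.38 and 10.40 in Flox livers and 10.57, 10.46, 10.06 and 10.13 in WT livers (log2). The Del arrays lay below all Flox arrays, and both lines overlapped with WT. It fell by 0.64 in Del against Flox (limma adjusted p = 0.02), and its differences from WT were -0.55 in H/A livers (adjusted p = 0.0708) and -0.39 in Del livers (adjusted p = 0.160). Without Flox replicate 1 the Del against Flox call was lost, at -0.59 (adjusted p = 0.0544).

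Ugt2b34 was the Ugt gene that rose. It read 10.80, 10.86, 10.65 and 11.09 in H/A livers and 10.87, 10.60, 10.72 and 10.95 in Del livers, against 10.32, 10.71, 10.41 and 10.46 in Flox livers and 10.49, 10.57, 10.17 and 10.34 in WT livers (log2). H/A and Del arrays lay above the WT arrays. The rise was 0.46 in H/A against WT (limma adjusted p = 0.043), and the differences of 0.39 in Del against WT (adjusted p = 0.0634) and 0.31 in Del against Flox (adjusted p = 0.0801) did not pass. The H/A call was kept in 6 of 16 fits that left out 1 array.

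Ugt2b36, Ugt2b5 and Ugt2b38, among the brightest probes that did not pass, differed by -0.36, -0.37 and -0.41 in H/A and by -0.05, -0.10 and -0.13 in Del, all against WT. Ugt2b36 was 12.53 to 13.12 in H/A, 13.12 to 13.40 in Del, 13.23 to 13.46 in Flox and 13.10 to 13.43 in WT. Ugt2b5 was 11.73 to 12.70 in H/A, 12.18 to 12.72 in Del, 12.40 to 12.89 in Flox and 12.29 to 12.83 in WT. Ugt2b38 was 11.21 to 12.26 in H/A, 11.66 to 12.23 in Del, 11.82 to 12.48 in Flox and 11.78 to 12.40 in WT. H/A replicate 3 was the lowest H/A array for all 3 genes. Ugt2b37 differed by -0.32 in H/A and -0.38 in Del (limma adjusted p = 0.368 and 0.285).

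The Ugt1 genes gave 1 call among 8 tested, that of Ugt1a5, in each of H/A against WT, Del against WT and Del against Flox. Of all genes 10.1%, 13.2% and 34.8% were called in these comparisons, so the count is no result about the Ugt1 genes as a group. Ugt1a5 read 7.87, 7.55, 7.57 and 7.54 in H/A livers and 7.57, 7.68, 7.30 and 7.75 in Del livers, against 8.31, 8.19, 7.99 and 8.23 in Flox livers and 8.04, 7.86, 8.09 and 8.32 in WT livers (log2). The Del arrays lay below all Flox and WT arrays, and H/A replicate 1 overlapped with WT. Ugt1a5 fell by 0.45 in H/A against WT (limma adjusted p = 0.0482), by 0.51 in Del against WT (adjusted p = 0.0228) and by 0.61 in Del against Flox (adjusted p = 0.0054). The H/A call was kept in 3 of 16 fits that left out 1 array, and without scaling its value was 0.077.

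Ugt1a6a, which conjugates planar phenols, was 13.46 to 13.75 in H/A and 13.42 to 13.59 in Del, against 13.12 to 13.69 in Flox and 13.26 to 13.38 in WT. Its differences of 0.28 in H/A (limma adjusted p = 0.138) and 0.20 in Del (adjusted p = 0.257) against WT did not pass. Ugt1a1, whose enzyme conjugates bilirubin, differed by -0.13 in H/A (-0.83 to 0.56) and by -0.52 in Del (-1.21 to 0.18), both against WT. Ugt1a9 varied widely, from 8.89 to 10.04 in H/A, 9.29 to 10.25 in Del, 8.10 to 10.60 in Flox and 7.53 to 10.45 in WT, with differences of 0.79 in H/A (adjusted p = 0.343) and 1.19 in Del (adjusted p = 0.163) against WT. Ugt1a10 differed by 0.52 in H/A and 0.69 in Del, and Ugt1a7c by 1.31 and 1.44, without passing, and Ugt1a7c was well above background on 9 of 16 arrays. Ugt1a2 and Ugt1a6b differed from WT by -0.02 and 0.14 in H/A.

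Ugt3 enzymes use other UDP sugars in human. Ugt3a2 was 9.89 to 11.62 in H/A, 10.84 to 11.97 in Del, 11.47 to 12.04 in Flox and 11.62 to 11.86 in WT, and differed by -0.64 in H/A (limma adjusted p = 0.180) and -0.28 in Del against WT. Its other probe differed by -0.95 and -0.82. Ugt3a1 differed by -0.34 in H/A and -0.28 in Del at its brightest probe and by -1.21 and -0.87 at the next. Its dimmest probe, well above background on 13 of 16 arrays, differed by -1.73 and -1.03. The probes of both Ugt3 genes thus pointed the same way in both lines but differed in size.

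The slides were compared because the genotypes were spread unevenly over them. Going by the labels, slide 1 carried 3 H/A, 1 Del, 2 Flox and 2 WT arrays and slide 2 carried 1 H/A, 3 Del, 2 Flox and 2 WT arrays. With the slide by label as a block, 21 of the 24 calls were kept, and all 24 kept their direction. The 3 lost were Ugt2b34, Ugt1a5 and Sult2a3 in H/A against WT (limma adjusted p = 0.0583, 0.0607 and 0.0633). With the slide by file name as a block, 13 of 24 were kept, again with all directions. The lost calls included Sult2a8 (-2.68, limma adjusted p = 0.0517) and Sult5a1 (-3.31, adjusted p = 0.0694) in Del against WT. The file-name block follows the listed files. For 6 of 16 samples these were not the files that the values matched, so it does not place those samples by their own arrays. Within the first slide 24 of 24 and within the second 23 of 24 had the same direction. The 24 calls were chosen on all 16 arrays, which make up the slides, and share mice between comparisons. Agreement in direction was therefore likely in advance and is not a replication. Sult5a1 differed from WT by -4.21 and -3.27 in H/A and by -5.97 and -2.85 in Del on the first and second slide. The same order of slides gave -2.88 and -1.82 in H/A and -3.53 and -2.49 in Del for Sult2a8. Ugt2b1 gave -2.47 and -0.87 in H/A and -2.20 and -1.20 in Del. Sult2a1 in H/A against WT was 3.90 on the first slide and 0.05 on the second, and Sult2a3 was 4.0 and -0.45, the last between arrays on which it was not well above background, so that it shows no direction.

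Genes that supply the sugar and sulfate donors were set beside the transferases. Of 7 tested genes for glucuronidation supply, 2 rose in H/A and 2 in Del against WT, and 4 in Del against Flox, with 0 falls. Of all genes tested, 7.08%, 8.85% and 16.6% were called higher in these 3 comparisons, and 2.97%, 4.38% and 18.2% lower, which are the shares to set beside the counts of the lists below. Ugdh, which makes UDP-glucuronic acid, rose above WT by 1.82 in H/A livers (limma adjusted p = 0.0011) and 2.10 in Del livers (adjusted p = 0.00021), and by 2.08 in Del against Flox. Pgm2, a phosphoglucomutase, rose by 0.93 in H/A, 1.18 in Del and 1.26 in Del against Flox. Of 5 tested genes of sulfation supply, 0 were called by limma in H/A or in Del against WT, and 2 rose in Del against Flox. At an unadjusted limma p under 0.05 there were 1 in H/A and 0 in Del against WT. Of all 31484 genes, 10322 and 10426 met this in the same 2 comparisons. Papss2, which makes the sulfate donor, differed by 0.19 in H/A and 0.08 in Del against WT.

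Of 4 tested genes that remove or edit conjugates, Arsa, the lysosomal arylsulfatase A, rose by 1.14 in H/A, by 1.09 in Del and by 1.00 in Del against Flox. Of 16 tested regulators, 2 rose in H/A, 3 in Del against WT and 5 in Del against Flox, and 0 fell. Ahr, the aryl hydrocarbon receptor that induces several Ugt1a genes, rose by 0.96 in H/A, 1.29 in Del and 1.15 in Del against Flox (limma adjusted p = 0.0096, 0.00091 and 0.0015). Nfe2l2, the oxidative stress regulator, rose by 0.70 in Del against WT and differed by 0.50 in H/A (adjusted p = 0.0632). Esr1, the estrogen receptor, rose by 0.85 in H/A against WT. Hnf4a, a regulator of hepatocyte genes, and Nr1i2 and Nr1i3, drug-sensing receptors, did not pass, with H/A differences of -0.09, 0.45 and -0.13.

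Of 10 transporters of conjugates and bile acids, H/A against WT gave 1 rise and 4 falls, and Del against WT and Del against Flox each gave 2 rises and 6 falls. Abcc4, an efflux pump of the sinusoidal membrane, rose by 1.57 in H/A, 1.54 in Del and 1.29 in Del against Flox. Among the uptake carriers, Slco1a1 fell in both lines against WT, with log2 differences of -4.56 in H/A and -3.74 in Del. Slco1a4 fell with -1.25 and -1.75, Slco1b2 with -0.73 and -0.97, and Slc22a7, an organic anion carrier, with -1.81 and -2.06, in the same order. Among 11 other conjugation enzymes, 2 rose and 1 fell in H/A and 1 rose and 2 fell in Del against WT. Ephx1, the microsomal epoxide hydrolase, rose by 1.00 in H/A and 1.05 in Del, and Nat8, an N-acetyltransferase, fell, with -1.0 in H/A and -1.43 in Del.

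**Figure D5:**
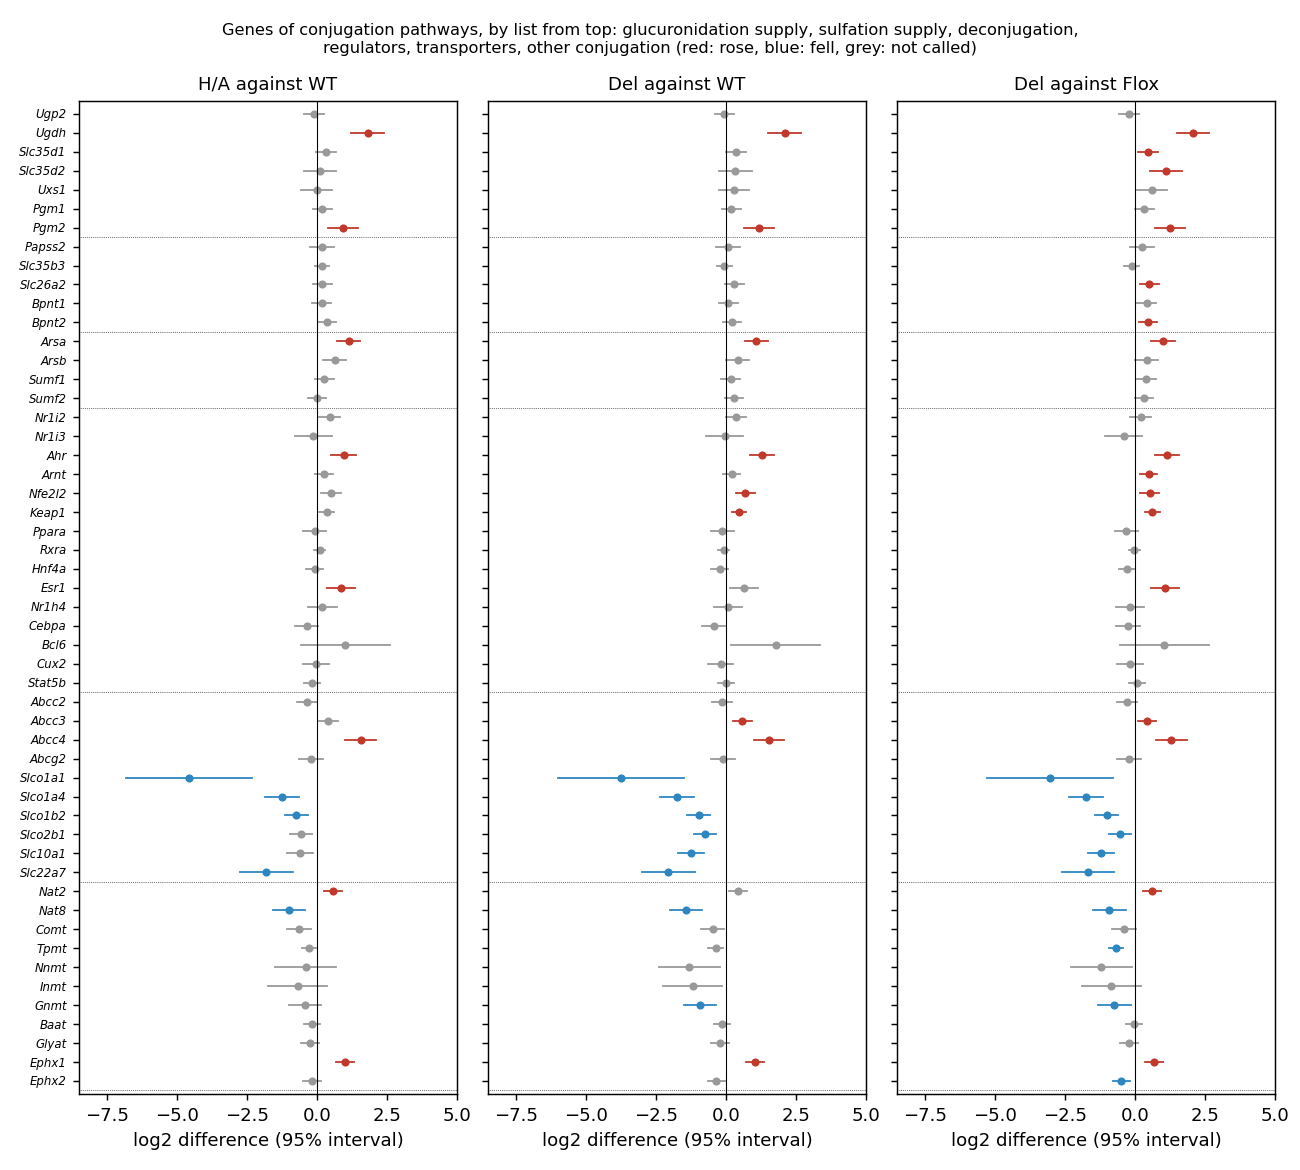
Log2 differences with 95% intervals of tested genes of 6 conjugation lists (1 gene is not shown) in H/A against WT, Del against WT and Del against Flox, with dotted lines between lists. Ugdh rose by 1.82, 2.10 and 2.08 and Abcc4 by 1.57, 1.54 and 1.29 in the 3 comparisons, while Slco1a4, Slco1b2 and Slc22a7 fell in all of them.

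The promoter windows of the members, 250 bases before to 50 after the start in RefSeq (GRCm38.p6), were searched on both strands. A window was available for 35 members. The letters ATCAAT, the core bound by HNF6, a liver factor, occurred in 7 of 35 members (20%), and in 8.63% of all genes with a window. The members were Sult2a8, Sult3a1, Ugt1a1, Ugt1a5, Ugt1a7c, Ugt2b1 and Ugt2b36. Of these, 3 fell in H/A and 4 did not pass or were not tested. Sult5a1, Sult2a4, Ugt2a3 and Ugt2b35, which fell in H/A too, had windows without ATCAAT. The antioxidant response core TGACNNNGC was in 0 of 35 members and in 14% of all genes, the xenobiotic response core GCGTG in 11.4% and 35.2%, and the STAT5 letters TTCNNNGAA in 5.71% and 9.55%. A match is a description of letters only. The windows of Sult2a8 and Ugt2b1 are printed as those of the most strongly falling members with a match, on the minus strand and with ATCAAT on either strand in capitals. The first 35 bases of the other Sult2a8 probe are the last 35 of its window.

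Sult2a8, chr7:14438502-14438801: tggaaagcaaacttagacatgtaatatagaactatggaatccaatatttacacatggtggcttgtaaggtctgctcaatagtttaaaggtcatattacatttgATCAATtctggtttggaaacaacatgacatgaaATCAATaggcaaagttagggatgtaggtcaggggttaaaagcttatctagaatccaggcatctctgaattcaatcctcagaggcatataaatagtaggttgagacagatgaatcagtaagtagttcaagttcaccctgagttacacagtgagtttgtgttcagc
Ugt2b1, chr5:86926454-86926753: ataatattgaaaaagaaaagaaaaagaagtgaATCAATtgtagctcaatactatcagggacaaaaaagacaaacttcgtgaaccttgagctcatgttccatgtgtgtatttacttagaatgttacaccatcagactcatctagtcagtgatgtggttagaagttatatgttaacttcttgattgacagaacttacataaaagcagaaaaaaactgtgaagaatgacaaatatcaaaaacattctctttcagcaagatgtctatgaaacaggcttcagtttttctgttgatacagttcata

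The matches in Sult2a8 start 147 and 114 bases before the start site, and that in Ugt2b1 218 bases before it. Sult2a8 has a second window at another start, without a match.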

How the data were processed

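Liver RNA of 16 mice was hybridised to 1-colour Agilent arrays. The scanner files hold spot intensity values that Agilent Feature Extraction 11 made, per the submitters' processing notes and the file headers. The authors' deposited value table holds log2 values with the same median, 4.36, in every column and sorted columns that differ by at most 0.0063, as quantile normalisation gives. For 6 of 16 samples the listed scanner file was not that of the label, and each column matched the file of its label best, so flags of signal well above background came from the file of the label. Of 60037 probes, 36264 had a gene symbol through RefSeq transcripts (GRCm38.p6); other probes were tested as unnamed transcripts. All 16 arrays were fitted in 1 model with limma 3.58.1 (R 4.3.3), with 5 comparisons, and the fit was tested on simulated data. Members with values per array are those called in any comparison, and ranges are given for the 6 brightest others. Pathway genes are named by the 3 smallest p-values of each list, and other list members were chosen after their values were seen. Members, lists and motifs were chosen with earlier results of these data known. The alternatives were other scalings, normexp, the listed files, filters, probe averaging, slide blocks, smaller fits, other moderation and leaving out each array; fits within a slide were added after seeing the data. Some genes of the regulator and marker lists are not reported here by name.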

Additional observations from a re-analysis of the deposited data

Results flagged for a closer look

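In 136 groups of 4 arrays (34 members, 4 genotypes), 13 arrays stood apart from the other 3 by a gap above Dixon's 95% critical value, where chance gives 1 in 20, or 6.8. That number holds for independent groups. The members share arrays and some probes are near copies, so 13 cannot be tested against it. H/A replicate 3 was low for Ugt2b35 (9.85), Ugt2b36 (12.53), Ugt2b37 (7.42) and Ugt3a2 (9.89). H/A replicate 4 was low for Ugt1a7c (1.80), and H/A replicate 1 was high for Ugt1a5 (7.87). Flox replicate 1 was high for Sult2a5 (5.32) and low for Sult2a8 (10.42) and Ugt3a2 (11.47). The Sult2a5 flag follows from the filter, which the gene passed only through that array and 3 H/A arrays. WT replicate 3 was high for Ugt1a7c (5.36) and low for Ugt1a1 (9.43), WT replicate 2 was high for Ugt3a1 (9.97), and WT replicate 1 was low for Ugt3a2 (11.62). All values are log2 signals.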

How the results depend on the processing

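In H/A against WT 11 members were called, with shares of all genes in brackets (10.1%). The count was 4 with the listed files (0.0159%) and 6 with no filter on dim probes (5.22%). It was 7 with the slide by file name as a block (6.7%) and 5 in a fit of those 2 groups (5.8%). With 1 array left out it was 3 to 12, where 4.61% to 25.5% of all genes were called. The 4 with the listed files were Sult2a1, Sult2a2, Sult2a3 and Sult2a5, all higher, so that 2 of the 11 and none of the falls were kept. For 6 of 16 samples the listed file was not the one that the values matched. There the correlation, after each probe's mean was removed, was -0.30 to 0.17 with the listed file and 0.89 to 0.996 with the label's file. The fit with the listed files thus sets signals of other arrays under those samples, and cannot show how stable the calls are. Without scaling, 14 members and 30.3% of all genes were called. In Del against WT 6 were called (13.2%), and 3 without scaling (7.12%), 0 with the listed files (0%) and 1 with the slide by file name as a block (4.02%). With 1 array left out the count was 3 to 8, against 6.95% to 22.8% of all genes. In Del against Flox 7 were called (34.8%), and 4 without scaling (13.9%) and 0 with the listed files (0%). With 1 array left out the count was 4 to 9, against 16.2% to 39% of all genes. In Flox against WT the count was 0 throughout, and in H/A against Del it was 0 except for 4 with the listed files (0.0159%). Signs turned for Sult2a3 within the second slide (-0.45, between arrays on which it was not well above background), for Sult2a4 with the mean of its probes (1.69), and without scaling for Ugt1a5 (0.077) and Ugt2b35 (0.010), all in H/A against WT. The causes were not tested. The first slide holds 1 Del array and the second 1 H/A array, so fits within a slide assume that a lone array varies like the others. By the names of the listed files, slide and genotype overlap further. No paired analysis was possible because the labels carry no replicate numbers. With 4 arrays a group, small differences of members near background cannot be measured.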
